A study of Mus musculus with 6 samples.

Results

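The genes described here encode the secreted and membrane-bound metalloproteinases that cut the extracellular matrix, with their inhibitors and closest non-catalytic relatives. Members were chosen by symbol alone: every ADAMTS gene (Adamts with a number), every ADAMTS-like gene (Adamtsl with a number), every matrix metalloproteinase gene (Mmp with a number) and Timp1 to Timp4. Of 51 mouse genes with such a symbol, 49 had a row of their own among the 17858 genes tested, and Adamts2 and Mmp15 were not analysed here. The 49 comprise 18 ADAMTS genes, 5 ADAMTS-like genes, 22 MMP genes and 4 TIMP genes, each measured by 1 row of the table, and none was removed by a filter on low values.

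Matrix metalloproteinases are zinc enzymes made as inactive precursors. Some are secreted and others are held at the cell surface, where they also activate secreted precursors. ADAMTS enzymes are secreted and bind matrix through thrombospondin repeats, ADAMTS-like proteins share those repeats but lack the protease domain, and TIMPs block the active site. In brain these proteins are known for cutting the lecticans (aggrecan, brevican, neurocan and versican), the proteoglycans that fill the space around neurons, and for remodelling the basement membrane of vessels.

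RNA came from whole cerebellum of C57BL/6 mice of 2 ages, 7 days after birth (P7) and 6 weeks (6wk), with 3 Affymetrix exon arrays per age. The labels name no treatment, allele or sex, and they do not say that replicates were separate animals, so every p-value measures only the spread between these arrays, which may be technical. Expression values are on the log2 scale as deposited, and arrays are given in the order replicate 1, 2 and 3. In whole tissue, fewer cells of a type and less RNA per cell cannot be told apart.

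Array medians were 7.96, 7.92 and 7.97 at P7 and 7.82, 7.88 and 7.85 at 6wk, so every P7 median was above every 6wk median. The deposited scaling thus leaves the ages apart at the median, and counts under 2 further scalings are given below. Precision is limited by the small number of arrays. P7 replicate 2 stood apart, with a correlation across 23750 rows of 0.952 with P7 replicate 1 and 0.977 with P7 replicate 3, against 0.984 to 0.989 among the 6wk arrays. The mean over 6 granule neuron markers was 10.95, 7.41 and 10.27 in the P7 arrays and 11.35, 11.13 and 11.15 in the 6wk arrays. Over 6 dopamine and serotonin genes of tissue next to the cerebellum it was 6.58, 9.69 and 9.09 at P7. At 6wk the mean over these genes was 6.72, 7.58 and 7.11, so the 6wk arrays also differed in it. P7 replicate 2 was thus low in a defining cerebellar cell type and, with P7 replicate 3, high in markers of neighbouring tissue. The main counts below are given with and without P7 replicate 2. As a reference for dim rows, the 95th percentile of 824 olfactory receptor genes was 7.51 at P7 and 7.54 at 6wk. Their medians were 4.55 and 4.69, so a row under the 95th percentile can still lie above most of these genes. Of the 49 members, 22 had both group means under the 95th percentile, among them 6 that passed the test.

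Matrix protease genes were more often lower than higher at 6wk. Of the 49 members 14 fell, 5 rose and 30 did not pass (limma, Benjamini-Hochberg adjusted p under 0.05 over all genes). The 19 members that passed make up 38.8%, where 21.7% of all genes passed. The falls make up 28.6% of members against 13.4% of all genes, and the rises 10.2% against 8.26%. The median difference of 6wk minus P7 over the members was -0.27, and over all genes -0.05. The groups did not overlap in 27 members (55.1%), which include all 19 that passed, where 42.1% of all genes had groups that did not overlap.

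Without P7 replicate 2, 18 members fell and 5 rose, with a median of -0.25, where 17.2% of all genes fell and 9.56% rose. All 19 members that passed with all arrays passed in the same direction in that fit. Among all genes, 61.9% of the calls were lower at 6wk with the deposited scaling, 45.7% after a further quantile normalization and 44.8% after centring each array on its median. Among the members the same 2 scalings gave 10 and 9 falls, and 5 rises each. Of all 17858 genes, 1773 and 1704 fell and 2110 and 2097 rose under these scalings. Adamts7, Adamts20, Mmp25 and Timp1 passed under neither of them, with adjusted p from 0.0549 to 0.0987 in limma, and Adamts19 did not pass after centring (0.0562).

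**Figure D1:**
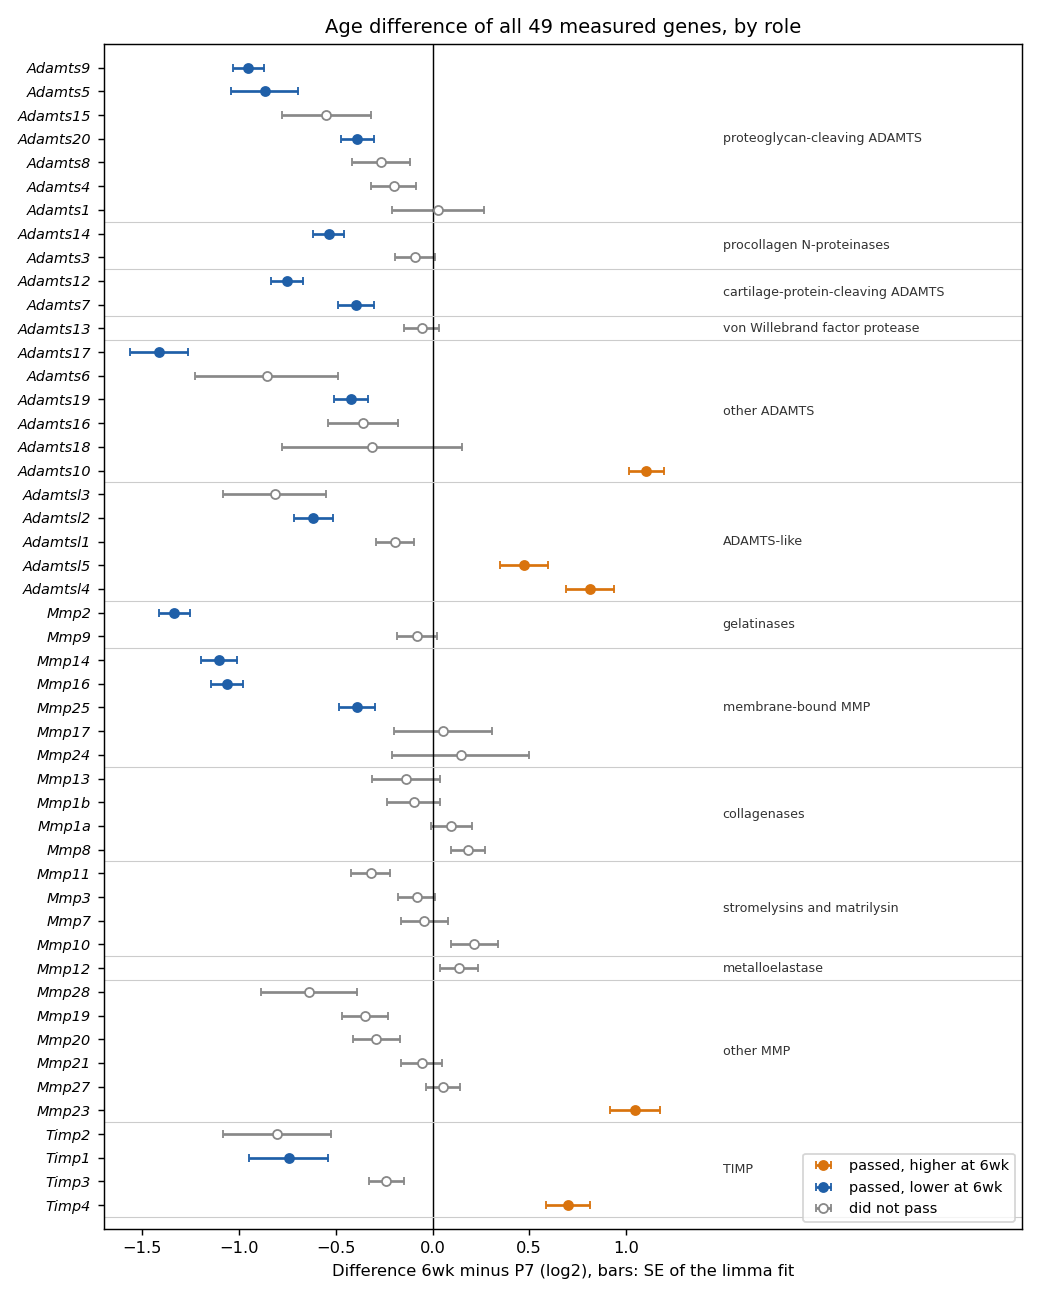
Difference of 6wk minus P7 on the log2 scale (x axis) for each of the 49 genes (y axis), grouped by role, with bars for the SE of the limma fit. Filled blue points (14 genes) passed as lower at 6wk, filled orange points (5 genes) passed as higher, and open grey points (30 genes) did not pass and lie between -0.86 and 0.22.

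The gelatinase Mmp2 and the surface proteases Mmp14 and Mmp16 formed the clearest fall. Mmp2, which cuts basement membrane collagen and denatured collagens, read 8.65, 8.70 and 8.56 at P7 and 7.29, 7.27 and 7.34 at 6wk. Every P7 array lay more than 1 log2 unit above every 6wk array, a 2.52-fold higher level at P7 (difference -1.33, SE 0.08, limma adjusted p = 0.000606). Mmp14 encodes MT1-MMP, the membrane-bound enzyme that activates the Mmp2 precursor together with TIMP2. It read 7.95, 8.04 and 8.14 at P7 and 6.91, 6.88 and 7.02 at 6wk, a difference of -1.10 (SE 0.09, limma adjusted p = 0.00105). Its P7 and 6wk arrays were likewise well separated, with SDs of 0.09 and 0.07.

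Mmp16 encodes MT3-MMP, a membrane-bound relative that can also activate the Mmp2 precursor. It read 9.63, 9.52 and 9.48 at P7 against 8.48, 8.50 and 8.46 at 6wk, a difference of -1.06 (SE 0.08, limma adjusted p = 0.000847). Arrays of the same age differed by at most 0.15, so the age difference was far larger than the spread. All 3 genes passed in each of the 6 fits that left out an array, and their differences without P7 replicate 2 were -1.30, -1.11 and -1.08.

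Of the other membrane-bound members, Mmp24 and Mmp17 did not pass and Mmp25 fell. Mmp24, the neuronal MT5-MMP, read 10.63, 9.15 and 10.11 at P7 and 10.23, 10.09 and 10.01 at 6wk. The 6wk arrays fell inside the P7 range and the gene did not pass (0.15, SE 0.35, limma adjusted p = 0.808), with the sign turned but still not past the threshold without P7 replicate 2 (-0.26, adjusted p = 0.313). Mmp17, the MT4-MMP that is anchored by a lipid tail, read 8.16, 9.22 and 8.70 at P7 and 8.67, 8.85 and 8.72 at 6wk, again with overlapping groups (0.05, SE 0.25, adjusted p = 0.905). Mmp25, a lipid-anchored enzyme known from leukocytes and named here after its values were seen, was dim at both ages (7.22 ± 0.10 and 6.83 ± 0.08, SD, n = 3). It passed (-0.39, limma adjusted p = 0.0301), but not when P7 replicate 3 or any single 6wk array was dropped (adjusted p 0.0863 to 0.107).

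The second gelatinase, Mmp9, known from injured and inflamed tissue, did not pass. It read 6.95, 7.21 and 7.15 at P7 and 6.94, 7.11 and 7.01 at 6wk, with overlapping groups under the olfactory receptor reference (-0.08, SE 0.10, limma adjusted p = 0.627). Its sign turned under both further scalings and with P7 replicate 1 as the only P7 array, and in none of them did it pass.

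Among the remaining MMPs only Mmp23 rose. Mmp23 encodes an unusual membrane-tethered MMP whose prodomain is known to bind potassium channels. It read 6.999, 6.76 and 6.70 at P7 and 8.06, 7.79 and 7.75 at 6wk. The lowest 6wk array was above the highest P7 array by over 0.7, a 2.06-fold higher level at 6wk (1.05, SE 0.13, limma adjusted p = 0.00328), and the call held in all 6 fits that left out an array. Its P7 mean of 6.82 ± 0.16 (SD, n = 3) lay under the olfactory receptor reference and its 6wk mean of 7.87 ± 0.17 above it.

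Mmp28, or epilysin, and Mmp11, or stromelysin-3, did not pass with all arrays but passed in 1 of the 6 fits that left out an array, and both are named after their values were seen. Mmp28 read 8.34, 7.34 and 8.004 at P7 and 7.36, 7.29 and 7.11 at 6wk, so that P7 replicate 2 alone lay within the 6wk range. It did not pass with all arrays (-0.64, limma adjusted p = 0.119) and did without P7 replicate 2 (-0.92, SE 0.14, adjusted p = 0.00576). Of the others, Mmp19 and Mmp21, differed by -0.35 and -0.06 and did not pass. Mmp11 differed by -0.32 (adjusted p = 0.0717) with groups that did not overlap, and by -0.38 without P7 replicate 1 (adjusted p = 0.0428).

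**Figure D2:**
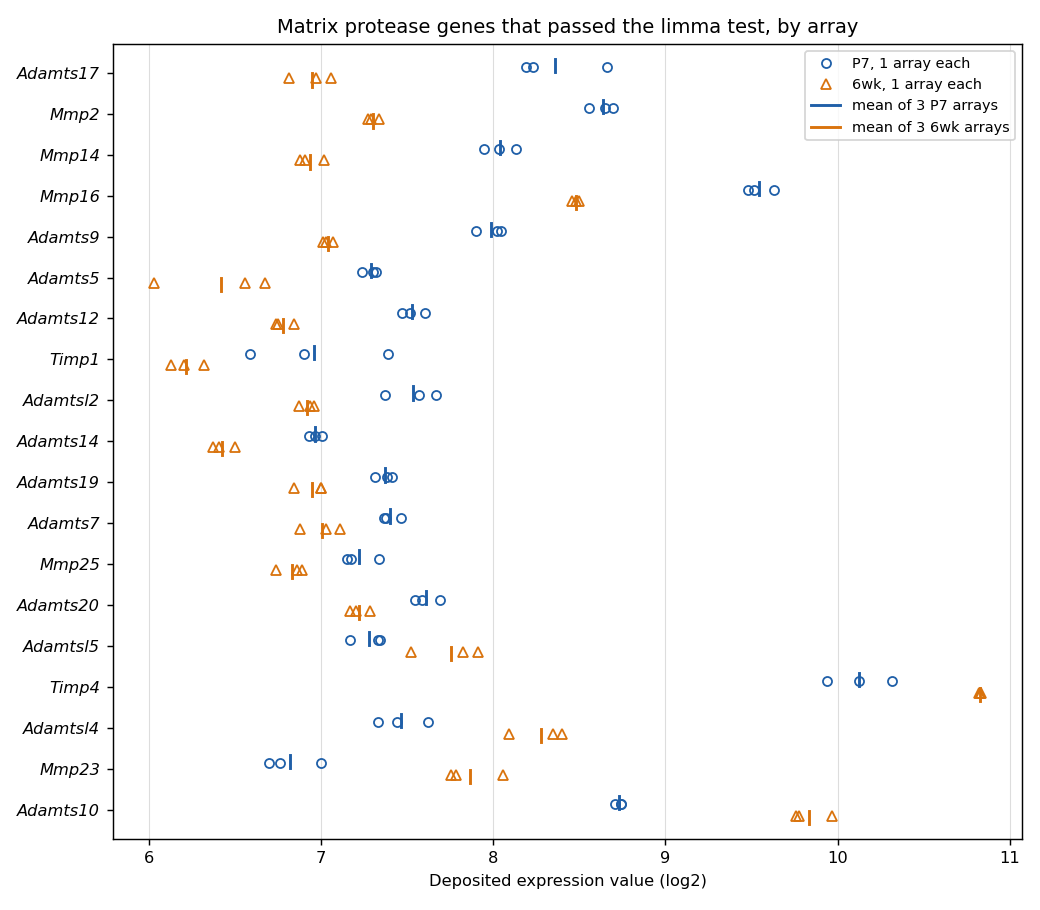
Deposited log2 value (x axis) in each of the 3 P7 arrays (open blue circles) and 3 6wk arrays (open orange triangles) for the 19 genes that passed, with vertical ticks for the group means, ordered by difference. In every row the groups do not overlap, and the largest separations are in Adamts17 and Mmp2 (lower at 6wk) and Adamts10 and Mmp23 (higher at 6wk).

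The collagenases, stromelysins, matrilysin and metalloelastase (Mmp1a, Mmp1b, Mmp8, Mmp13, Mmp3, Mmp10, Mmp7 and Mmp12) lie in a row on chromosome 9 with Mmp20, the enzyme of tooth enamel, and Mmp27. With no other protein-coding gene between them in the RefSeq table, the row holds 10 members. None of the 10 passed, with all arrays or without P7 replicate 2, and their differences ran from -0.29 (Mmp20) to 0.22 (Mmp10). Of the other 12 MMP genes 5 passed (41.7%, where 21.7% of all genes passed), and 6 did so without P7 replicate 2 (50%, where 26.8% did). All of the row except Mmp20 were under the olfactory receptor reference at both ages. The lowest was Mmp1b, at 3.65 ± 0.17 at P7 and 3.55 ± 0.19 at 6wk (SD, n = 3), with Mmp1a and the neutrophil collagenase Mmp8 at means of 3.97 to 4.33. Group means of Mmp3, Mmp7, Mmp10, Mmp12, Mmp13 and Mmp27 lay between 6.41 and 7.43, and Mmp20 was the highest, at 8.42 ± 0.13 and 8.13 ± 0.17 (SD, n = 3). Neutrophil markers gave no call in either direction (0 of 5), and the list mean was 6.51 to 6.95 over the P7 arrays and 6.58 to 6.92 over the 6wk arrays.

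Promoter windows also set the chromosome 9 row apart from the other members. The row was not planned as a group, unlike the groups by role, so its contrasts with other members are descriptions. RefSeq windows of 300 bases (250 before the start and 50 after it, GRCm38.p6) were at hand for 34 members, 37 windows in all. These were all 10 genes of the row and 24 other members. Mmp2, Mmp16, Adamts10, Adamts5, Mmp9 and Mmp17 were among the members without a window. On both strands the windows were searched for TGANTCA, which covers the site of the AP-1 transcription factors, TATAAA, the TATA box, and GGGCGG, the GC box of SP factors. TGANTCA was present in 8 of the 12 windows of the row and in 0 of the 25 windows of other members, against 7.81% of all 32851 windows. TATAAA was present in 9 of 12 and 3 of 25 windows (13.6% of all windows), and GGGCGG in 0 of 12 and 20 of 25 (35.7%). The windows of the row held 0 to 7 CpG sites (median 1), and those of other members 2 to 46 (median 20), where the median of all windows was 7. The match of letters is a description and does not show that a factor binds.

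Windows of 2 genes of the row that did not pass (Mmp3, Mmp10), 2 that fell (Mmp14, Adamts17) and 1 that rose (Timp4) are shown to set these types side by side, with every match to the 3 motifs in capitals. Mmp3 lies at chr9:7445572-7445871 (plus strand), Mmp10 at chr9:7502092-7502391 (plus), Mmp14 at chr14:54431348-54431647 (plus), Adamts17 at chr7:66839485-66839784 (plus) and Timp4 at chr6:115252156-115252455 (minus), all in GRCm38.p6.
Mmp3: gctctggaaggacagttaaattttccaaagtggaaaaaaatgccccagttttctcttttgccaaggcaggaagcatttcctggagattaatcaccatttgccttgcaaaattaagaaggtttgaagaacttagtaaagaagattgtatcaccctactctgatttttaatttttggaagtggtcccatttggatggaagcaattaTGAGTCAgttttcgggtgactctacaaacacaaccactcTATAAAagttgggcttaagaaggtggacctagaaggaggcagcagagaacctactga
Mmp10: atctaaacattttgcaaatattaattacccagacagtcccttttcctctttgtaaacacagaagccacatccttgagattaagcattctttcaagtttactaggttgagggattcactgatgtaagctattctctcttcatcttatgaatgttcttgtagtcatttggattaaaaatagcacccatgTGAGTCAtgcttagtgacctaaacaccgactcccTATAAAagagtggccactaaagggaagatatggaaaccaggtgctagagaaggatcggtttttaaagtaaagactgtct
Mmp14: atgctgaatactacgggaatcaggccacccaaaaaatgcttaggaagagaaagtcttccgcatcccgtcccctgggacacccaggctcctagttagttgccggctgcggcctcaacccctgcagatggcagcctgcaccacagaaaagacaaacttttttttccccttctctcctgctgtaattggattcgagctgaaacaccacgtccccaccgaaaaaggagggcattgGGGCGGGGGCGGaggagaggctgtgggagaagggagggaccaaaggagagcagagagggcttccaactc
Adamts17: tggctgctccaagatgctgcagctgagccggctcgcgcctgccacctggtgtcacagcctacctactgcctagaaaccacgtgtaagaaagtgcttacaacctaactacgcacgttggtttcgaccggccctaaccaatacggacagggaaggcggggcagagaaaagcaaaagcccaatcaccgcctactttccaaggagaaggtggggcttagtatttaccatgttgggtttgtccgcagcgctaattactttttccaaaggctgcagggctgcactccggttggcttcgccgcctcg
Timp4: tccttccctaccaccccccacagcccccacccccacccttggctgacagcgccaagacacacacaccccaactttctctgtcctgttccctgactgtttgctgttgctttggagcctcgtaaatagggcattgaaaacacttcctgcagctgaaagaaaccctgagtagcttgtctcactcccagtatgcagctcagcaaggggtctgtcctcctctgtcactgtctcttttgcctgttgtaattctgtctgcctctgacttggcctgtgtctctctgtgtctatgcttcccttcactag
Mmp3 and Mmp10 each hold 1 TGANTCA and 1 TATAAA match in the same order, with 1 and 2 CpG sites. Mmp14 holds 2 GGGCGG matches, side by side, and 10 CpG sites. Adamts17, with 17 CpG sites, and Timp4, with 2, hold none of the 3 motifs. Timp4 passed with as few CpG sites as Mmp10, so a low CpG count was not limited to genes that did not pass.

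**Figure D3:**
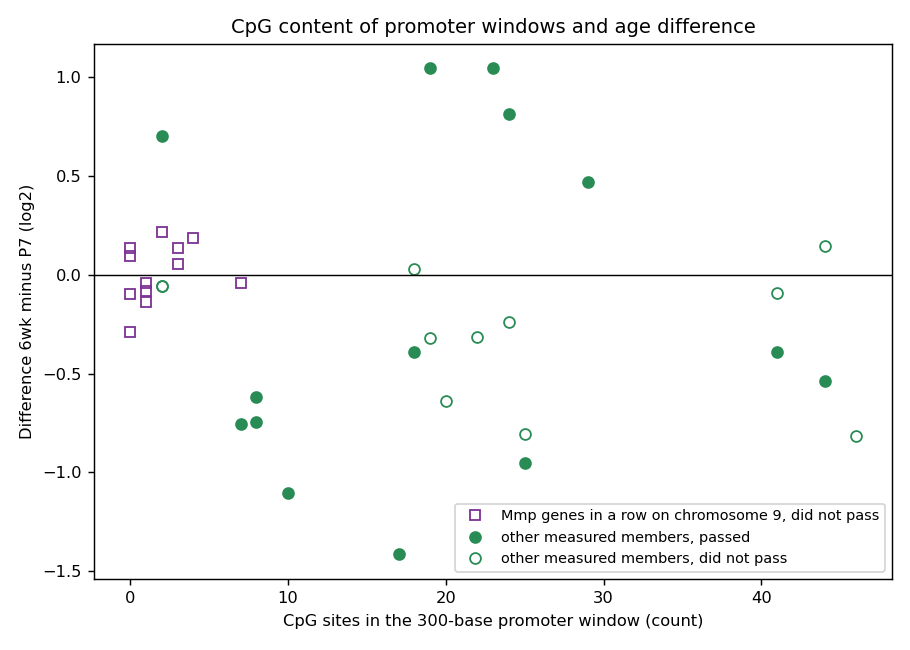
CpG sites counted in each 300-base promoter window (x axis) against the difference of 6wk minus P7 on the log2 scale (y axis), 1 point per window, so that genes with 2 windows appear at both counts. The chromosome 9 row (purple squares) has 0 to 7 CpG sites and differences near 0, and the other members (green circles, filled where the gene passed) span 2 to 46 sites.

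Of 18 measured ADAMTS enzymes 8 fell, 1 rose and 9 did not pass. The falls make up 44.4% of them, where 13.4% of all genes fell. The fit without P7 replicate 2 gave 10 falls and 1 rise, where 17.2% of all genes fell and 9.56% rose. The enzymes that cut lecticans were split: Adamts5, Adamts9 and Adamts20 fell, and Adamts1, Adamts4, Adamts8 and Adamts15 did not pass. Adamts9, a versican-cleaving enzyme, read 7.90, 8.02 and 8.05 at P7 and 7.01, 7.07 and 7.03 at 6wk. The groups lay far apart (-0.95, SE 0.08, limma adjusted p = 0.00121), and the gene passed in all 6 fits that left out an array.

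Adamts5, or aggrecanase-2, read 7.305, 7.32 and 7.24 at P7 and 6.03, 6.67 and 6.56 at 6wk. 6wk replicate 1 was the lowest by a wide margin, and all values were under the olfactory receptor reference (-0.87, SE 0.17, limma adjusted p = 0.0163, and 0.0612 without P7 replicate 3). Adamts4, or aggrecanase-1, did not pass: it read 8.53, 8.37 and 8.68 at P7 and 8.20, 8.42 and 8.34 at 6wk, with overlapping groups (-0.20, SE 0.11, adjusted p = 0.261). Adamts1, another enzyme that cuts aggrecan and versican and the neighbour of Adamts5 on chromosome 16, read 8.62, 7.68 and 8.24 at P7 and 8.38, 8.15 and 8.10 at 6wk. Its P7 arrays enclosed all 6wk values (0.03, SE 0.24, adjusted p = 0.948), and its sign turned without P7 replicate 2 (-0.22, adjusted p = 0.332).

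Adamts20, known in mouse for pigment cell migration and named after its values were seen, differed by -0.39 (limma adjusted p = 0.0227). Dropping P7 replicate 3 or any single 6wk array ended the call (adjusted p 0.0691 to 0.0918). Adamts15, which also cuts versican, read 7.58, 8.53 and 8.04 at P7 and 7.43, 7.54 and 7.54 at 6wk. Its groups did not overlap, but the difference over all arrays missed the threshold (-0.55, adjusted p = 0.141). Of the 6 fits that left out an array, it passed in the one without P7 replicate 1 (-0.78, adjusted p = 0.0203). Adamts8, its neighbour on chromosome 9, differed by -0.27 with overlapping groups and passed in no fit that left out an array. Adamts15 and Adamts8 are also named after their values were seen.

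Of the enzymes of procollagen and cartilage proteins, Adamts12, Adamts14 and Adamts7 fell and Adamts3 did not pass. Adamts12, which cuts the cartilage protein COMP, read 7.52, 7.47 and 7.60 at P7 and 6.84, 6.75 and 6.74 at 6wk, a difference of -0.75 (SE 0.08, limma adjusted p = 0.00244). Adamts14, which trims the amino end of procollagen, read 6.96, 7.01 and 6.93 at P7 and 6.50, 6.37 and 6.41 at 6wk (-0.54, SE 0.08, adjusted p = 0.00645). Both passed in all 6 fits that left out an array, although both group means of Adamts14 and the 6wk mean of Adamts12 were under the olfactory receptor reference.

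Adamts7, the second COMP-cleaving enzyme, read 7.38, 7.37 and 7.46 at P7 and 7.11, 6.88 and 7.03 at 6wk. Its groups were separate, and it passed with all arrays (-0.40, SE 0.09, limma adjusted p = 0.0280). It no longer passed when P7 replicate 3 or any single 6wk array was dropped (adjusted p 0.0554 to 0.122). Adamts3, the procollagen enzyme that also processes VEGF-C and reelin, read 8.23 ± 0.16 and 8.13 ± 0.02 (SD, n = 3), and the difference missed the threshold (adjusted p = 0.582). Adamts13, the protease of von Willebrand factor, differed by -0.06 (adjusted p = 0.710). Both are named after their values were seen.

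The remaining ADAMTS genes held both the largest fall and the largest rise of all 49 members. Adamts17 read 8.23, 8.66 and 8.19 at P7 and 6.81, 7.06 and 6.97 at 6wk, a 2.67-fold higher level at P7 (-1.42, SE 0.15, limma adjusted p = 0.00209). Adamts10 read 8.74, 8.74 and 8.71 at P7 and 9.97, 9.78 and 9.76 at 6wk, a 2.15-fold higher level at 6wk (1.11, SE 0.09, adjusted p = 0.00101). All arrays of each age were on the same side for both genes, and both calls held in all 6 fits that left out an array. Mutations of ADAMTS10 and of ADAMTS17 are each known to cause Weill-Marchesani-type syndromes of short stature and lens dislocation in humans, and ADAMTS10 binds the microfibril protein fibrillin-1. Without P7 replicate 2 the differences were -1.27 and 1.11.

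Adamts19, an enzyme with no well-known substrate, read 7.31, 7.38 and 7.41 at P7 and 6.998, 6.84 and 7.002 at 6wk (-0.42, SE 0.09, limma adjusted p = 0.0185). The groups were separate and dim, and the gene missed the threshold when P7 replicate 3 or any single 6wk array was dropped (adjusted p 0.0568 to 0.0931). Adamts6, Adamts16 and Adamts18 did not pass and are described with the P7 arrays below.

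Of the 5 ADAMTS-like genes 2 rose and 1 fell (40% and 20%, where 8.26% of all genes rose and 13.4% fell). Leaving out P7 replicate 2 gave 2 rises and 2 falls, where 9.56% of all genes rose and 17.2% fell. Adamtsl4, a fibrillin-binding protein whose loss causes lens dislocation in humans, read 7.33, 7.62 and 7.44 at P7 and 8.09, 8.40 and 8.34 at 6wk. All 6wk arrays were higher by over 0.4 (0.81, SE 0.12, limma adjusted p = 0.00667), and the call held in all 6 fits that left out an array. Adamtsl5 read 7.17, 7.33 and 7.34 at P7 and 7.52, 7.91 and 7.82 at 6wk (0.47, SE 0.13, adjusted p = 0.0412). That call was lost without P7 replicate 1 or 3 or without 6wk replicate 2 or 3 (adjusted p from 0.0742 to 0.142).

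Adamtsl2, a matrix protein mutated in geleophysic dysplasia in humans, went the other way. It read 7.37, 7.67 and 7.57 at P7 and 6.87, 6.96 and 6.93 at 6wk (-0.62, SE 0.10, limma adjusted p = 0.00877, and 0.0505 without P7 replicate 3). Adamtsl1 and Adamtsl3, named after their values were seen, did not pass, with differences of -0.20 and -0.82, and for both the groups did not overlap.

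The inhibitors split by member. Timp4, the TIMP known for its expression in brain and heart, rose: it read 10.32, 9.94 and 10.13 at P7 and 10.83, 10.83 and 10.82 at 6wk. The 6wk arrays agree to within 0.013 and lie above every P7 array (0.70, SE 0.11, limma adjusted p = 0.00787), and the call held in all 6 fits that left out an array. Timp1, the TIMP known to be induced in injury and inflammation, fell: it read 7.39, 6.59 and 6.90 at P7 and 6.13, 6.32 and 6.20 at 6wk. The groups were separate but dim, and the P7 arrays were widely spread (-0.74, SE 0.20, adjusted p = 0.0442). Among the fits that left out an array, Timp1 passed without P7 replicate 1 (-0.53, adjusted p = 0.0325) or P7 replicate 2 (-0.93, adjusted p = 0.00930), and without any of the other 4 arrays its adjusted p ran from 0.09996 to 0.136.

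Timp2, which both inhibits MMPs and takes part in activating the Mmp2 precursor, read 10.78, 11.66 and 11.40 at P7 and 10.04, 10.77 and 10.61 at 6wk. The lowest P7 array and the highest 6wk array nearly touched, and the gene did not pass (-0.81, SE 0.28, limma adjusted p = 0.0889). Of the fits that left out an array, it passed in the one without P7 replicate 1 (-1.06, adjusted p = 0.0255). Timp3, which binds to matrix and also inhibits ADAM and ADAMTS enzymes, read 10.50, 10.29 and 10.37 at P7 and 10.17, 10.18 and 10.10 at 6wk. Its groups did not overlap, but the difference of -0.24 (SE 0.09, adjusted p = 0.108) did not pass in any fit that left out an array. Timp4 was therefore the only TIMP that was higher at 6wk, with 3 of the 4 lower on the mean and 1 of these 3 past the test. The 1 rise and 1 fall make up 25% each, where 8.26% of all genes rose and 13.4% fell.

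Several members differed between the P7 arrays by more than they differed between ages. P7 replicates 1 and 2 differed by over 0.5 log2 units in 12 of the 49 members (24.5%), where 27.3% of all genes did. In each of these 12, P7 replicate 3 lay between the other 2, which choosing genes by a wide gap makes likely. Over all 49 members it lay between them in 44.9%, and over all genes in 67.6%. Lower in P7 replicate 2 were Adamts18, Adamts6, Mmp24, Adamtsl3, Mmp28, Adamts1 and Timp1, and higher were Mmp17, Adamts15, Timp2, Adamts16 and Adamts8. All were chosen for this difference, which is a description.

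The widest P7 range was in Adamts18, an enzyme known from eye and lung development, at 8.92, 7.01 and 8.45, with 8.01, 7.65 and 7.77 at 6wk. P7 replicate 2 was below all 6wk arrays and the other P7 arrays were above them. The difference was -0.31 with all arrays (limma adjusted p = 0.678) and -0.87 without P7 replicate 2 (SE 0.18, adjusted p = 0.0157). Adamts6, a relative of Adamts10, read 8.61, 7.05 and 8.12 at P7 and 6.99, 7.15 and 7.07 at 6wk. Here P7 replicate 2 sat within the 6wk arrays, and the difference was -0.86 (adjusted p = 0.152) with all arrays and -1.29 (SE 0.16, adjusted p = 0.00305) without it.

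Adamtsl3 read 7.54, 6.49 and 7.304 at P7 and 6.37, 6.15 and 6.37 at 6wk, and differed by -0.82 (limma adjusted p = 0.0751) with all arrays and by -1.13 (adjusted p = 0.00214) without P7 replicate 2. With Mmp28, these were the 4 members gained without that array, all lower at 6wk, and none of the 19 was lost. Adamts16 read 8.05, 8.77 and 8.37 at P7 and 8.07, 8.02 and 8.03 at 6wk, and of the fits that left out an array it passed in the one without P7 replicate 1 (-0.53, adjusted p = 0.0366). Granule progenitor and dividing cell markers, at a list mean of 9.20, 7.36 and 8.75 in the P7 arrays, and choroid plexus markers, at 8.90, 6.65 and 7.98, had the same order of arrays as the 7 genes that were lower in P7 replicate 2. So had the list means for granule neurons, Purkinje cells (9.40, 7.53 and 8.99), Bergmann glia and astrocytes (10.32, 9.38 and 10.05) and meninges and fibroblasts (8.29, 7.90 and 8.27). Single genes of these lists could depart from that order. Of the meninges list only Dcn, Lum and Col3a1 followed it. Col1a1 ran the opposite way (8.17, 8.36 and 8.33), and Col1a2, Slc47a1, Foxc1 and Aldh1a2 were highest in P7 replicate 3. Car8 of the Purkinje list was also opposite (6.58, 6.76 and 6.61). List means of oligodendrocyte precursor markers, at 8.65, 9.33 and 8.97, microglia markers, at 7.71, 8.04 and 7.78, and those of neighbouring tissue had the order of the 5 genes that were higher. In the microglia list C1qa departed from it (7.34, 7.47 and 7.16). The part of these cell types in these values was not tested.

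**Figure D4:**
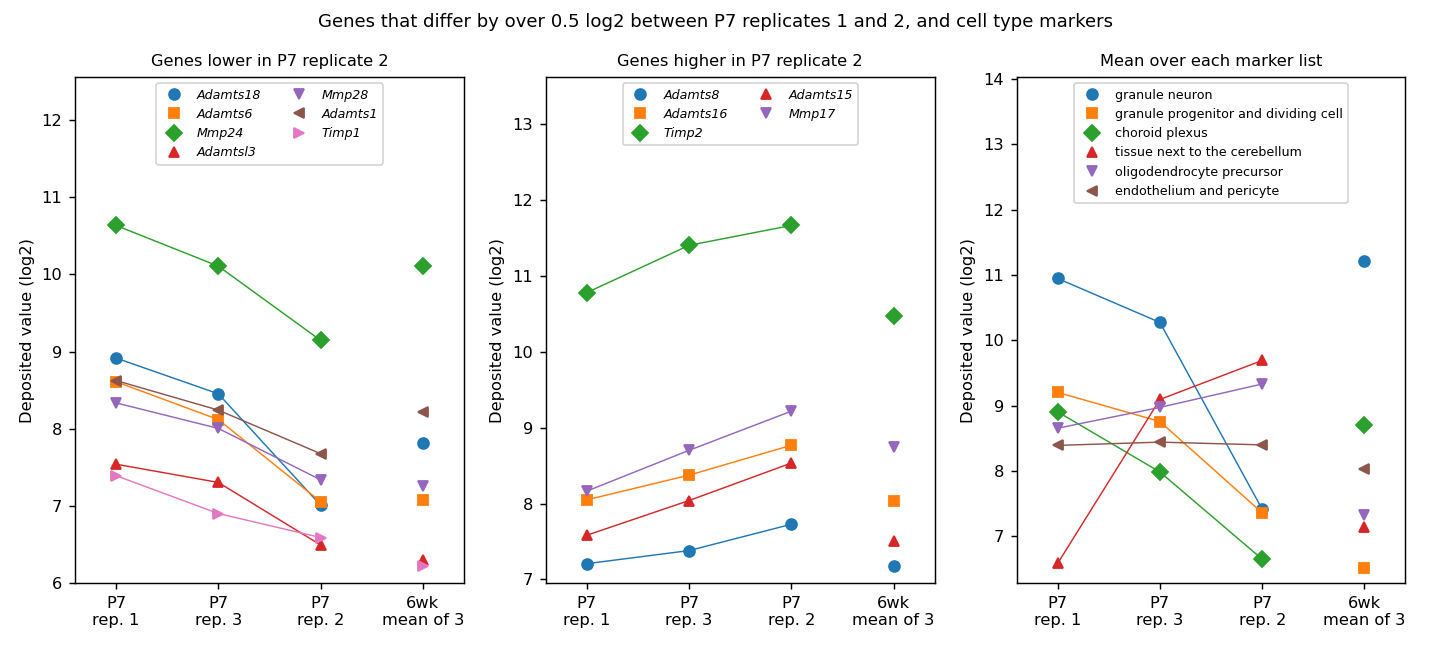
Deposited log2 values (y axis) in P7 replicates 1, 3 and 2 and the mean of the 3 6wk arrays for the 7 genes lower in P7 replicate 2 (left), the 5 genes higher there (middle), and the mean over each of 6 marker lists (right). Lines join arrays of P7 only, and P7 replicate 3 lies between the others in all 12 genes.

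In contrast, Mmp2, Mmp14, Mmp16, Adamts9, Adamts10 and Adamts12 had P7 ranges of 0.03 to 0.19. Markers of several cell types also moved with age, where 13.4% of all genes fell and 8.26% rose. Of 8 endothelium and pericyte markers 5 fell and 1 rose (62.5% and 12.5%). The mean over the list was 8.39 to 8.44 in the P7 arrays and 7.99 to 8.10 in the 6wk arrays. Of 8 meninges and fibroblast markers 3 fell and 1 rose (37.5% and 12.5%), with list means of 7.90 to 8.29 and 7.87 to 7.93. All 3 oligodendrocyte precursor markers fell (8.65 to 9.33 and 7.28 to 7.40). Of 6 granule progenitor and dividing cell markers 3 fell (50%, Mycn, Mki67 and Top2a), with list means of 7.36 to 9.20 and 6.47 to 6.55. Of 5 Bergmann glia and astrocyte markers 2 fell (40%, Aqp4 and Gfap), with list means of 9.38 to 10.32 and 9.84 to 9.90. Among the other lists no marker fell with all arrays, and Cbln3, Car8 and Ermn rose. Without P7 replicate 2, 5 granule progenitor and dividing cell markers and 4 meninges and fibroblast markers fell. Of the 6 granule neuron markers 2 then rose and 1 fell (Pax6, -0.83, limma adjusted p = 0.0236). In that fit 17.2% of all genes fell and 9.56% rose, and the counts of the remaining lists stayed the same. The part of these cell types in the falls of matrix proteases was not tested.

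Genes for the proteins that these enzymes cut mostly fell. Of 17 substrate genes 11 fell (64.7%, against 13.4% of all genes), 0 rose and 6 did not pass. Without P7 replicate 2 the counts were also 11 and 0, but the set changed. Lama1 was lost (limma adjusted p = 0.0525) and Lamb1 gained (adjusted p = 0.0123). Of the 6 fits that left out an array, Tnr passed in 2 and Lama1 in 1. Lama1, Lamb1 and Tnr are named after their values were seen. The median difference was -0.67. Neurocan, the lectican of the juvenile brain, showed the largest fall: Ncan read 11.29, 11.99 and 11.70 at P7 and 8.41, 8.91 and 8.84 at 6wk (-2.94, SE 0.21, limma adjusted p = 0.000757). Vcan, encoding versican, read 10.84, 9.39 and 10.38 at P7 and 8.40, 8.51 and 8.47 at 6wk (-1.74, SE 0.34, adjusted p = 0.0157). The Vcan groups did not overlap, but dropping P7 replicate 3 or any single 6wk array left it short of the threshold (adjusted p 0.0573 to 0.0669).

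The matrix glycoprotein gene Tnc (tenascin C) and the basement membrane gene Nid1 (nidogen 1) also fell, with differences of -2.41 and -2.21 (limma adjusted p = 0.00396 and 0.00454). Bcan (brevican) and Acan (aggrecan), lecticans that persist in adult brain, read 10.59 ± 0.41 and 7.09 ± 0.34 at P7 and 10.35 ± 0.12 and 7.02 ± 0.17 at 6wk (SD, n = 3), and both missed the threshold (adjusted p = 0.478 and 0.824). Reln, which encodes the guidance protein reelin of granule neurons, differed by 0.27 with overlapping groups (adjusted p = 0.646). The lecticans therefore divided into 2 that fell and 2 that did not pass.

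Of 20 measured activators, other inhibitors and clearance genes 3 rose, 1 fell and 16 did not pass (4 rises and 2 falls without P7 replicate 2), with a median of 0.01. The share that passed (20%) was near the 21.7% of all genes. A2m, which encodes alpha-2-macroglobulin, a protein that traps proteases of all classes, read 7.68, 7.56 and 7.44 at P7 and 9.54, 9.24 and 9.32 at 6wk (1.80, SE 0.12, limma adjusted p = 0.000606). Its groups lay over 1.5 log2 units apart. Pcsk6 and Pcsk5 encode related convertases that cut precursor proteins. They moved in opposite directions, by 1.56 (SE 0.28, adjusted p = 0.0108) and -0.87 (SE 0.13, adjusted p = 0.00568).

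Sdc4, the cell surface proteoglycan syndecan 4, rose by 0.82 (limma adjusted p = 0.00467). The convertase Furin, which activates the membrane-bound MMPs, did not pass (0.27, adjusted p = 0.275, with the sign turned when all rows of the gene were averaged, -0.09). Reck, a membrane-anchored inhibitor of MMPs, read 8.37 ± 0.25 at P7 and 8.45 ± 0.10 at 6wk (SD, n = 3), short of the threshold (adjusted p = 0.732). Lrp1, the receptor that clears proteases and their inhibitors, differed by 0.22 (adjusted p = 0.569). Plat, or tissue plasminogen activator, differed by -0.25 (adjusted p = 0.278), and by -0.39 without P7 replicate 2 (adjusted p = 0.0409).

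Of 11 measured ADAM relatives 2 rose and 2 fell (18.2% each, where 8.26% of all genes rose and 13.4% fell), with a median of -0.09. The fit without P7 replicate 2 gave 2 rises and 3 falls, where 9.56% of all genes rose and 17.2% fell. Adam11 and Adam23, which encode non-catalytic neuronal surface proteins, rose by 0.87 (limma adjusted p = 0.00164) and 0.40 (adjusted p = 0.0386). The call of Adam23 was lost without any array other than P7 replicate 2 (adjusted p from 0.0663 to 0.146). The proteases Adam12 and Adam19 fell, with differences of -0.83 and -0.72 (adjusted p = 0.00266 and 0.00454). Adam11, Adam12 and Adam19 passed in all 6 fits that left out an array.

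**Figure D5:**
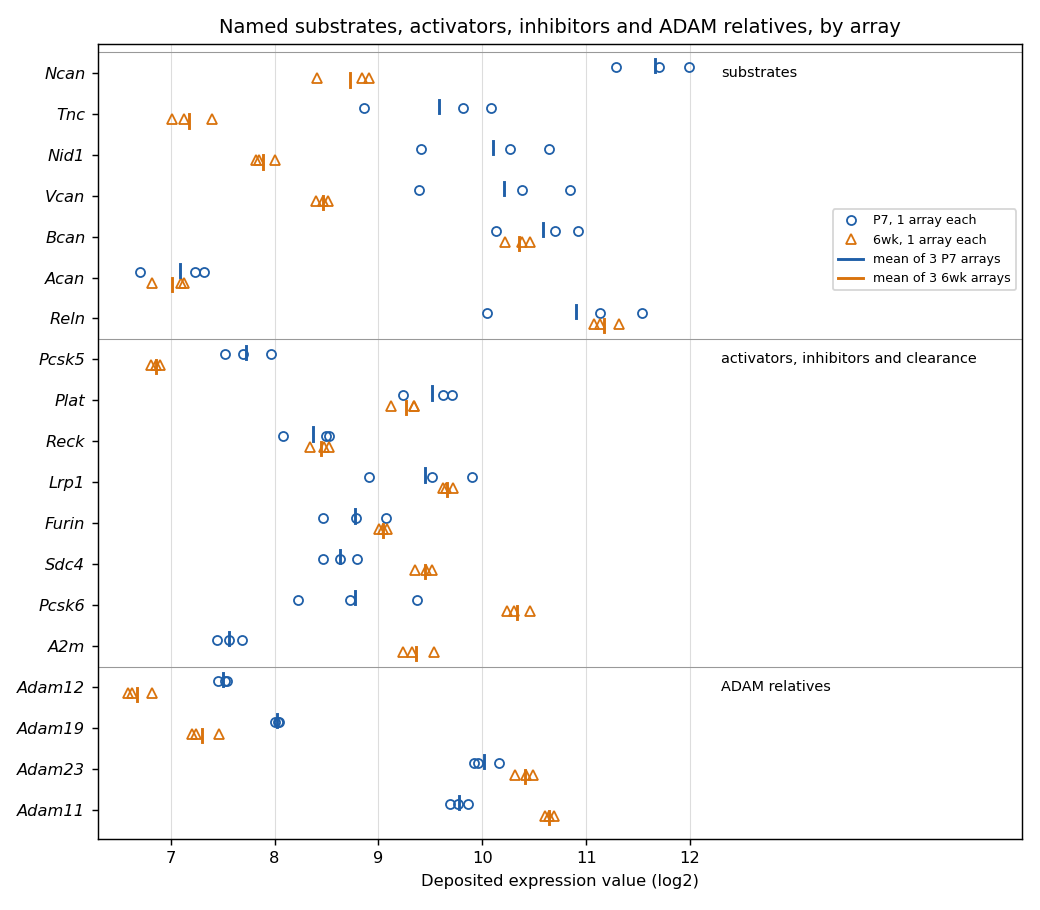
Deposited log2 value (x axis) in each P7 array (open blue circles) and 6wk array (open orange triangles) for the 19 substrate, activator, inhibitor, clearance and ADAM genes named by rule, with ticks for the group means. Ncan shows the widest separation, followed by Tnc and Nid1 (lower at 6wk), and A2m is the largest rise.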

How the data were processed

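Cerebellar RNA of 3 P7 and 3 6wk arrays was compared. The authors deposited log2 expression values for 23750 rows. RMA, Affymetrix Power Tools and mm9 are named in the submitters' processing notes, without versions, and any filter is not given in the sources used here. RMA sets arrays to a common scale, so only changes relative to other genes can be seen. Medians of the deposited rows were still higher in each P7 array than in any 6wk array. Gene symbols came from the platform annotation, in which 18463 rows had 1 symbol, 1799 several and 3488 none. The row with the highest mean was kept for each of 17858 genes (471 genes had more than 1 row). With 1 value per row, a change in a single exon cannot be seen.

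The difference of 6wk minus P7 was tested two-sided for each gene, unblocked and unfiltered, by lmFit with eBayes in limma 3.58.1 under R 4.3.3, and Benjamini-Hochberg adjusted p-values under 0.05 over all genes were called. The step was tested on simulated data. Errors of levels are SDs of 3 arrays, and errors of differences are limma's SE. Values by array are given for all rises, the 12 largest falls, and Timp1 to Timp4, Mmp2, Mmp9, Mmp14, Mmp16, Mmp17, Mmp24, Adamts1, Adamts4 and Adamts5 whatever their result. Partner genes are named for up to 3 rises and 3 falls per list, with Bcan, Ncan, Vcan, Acan, Reln, Reck, Furin, Plat and Lrp1. Members, lists and rules were chosen with earlier results of these data known. Red blood cell markers were not analysed here except Alas2, which did not pass. The alternatives were scaling, a filter on dim rows, the row per gene, the rows adjusted over, an intensity trend, array weights, a replicate block, leaving out each array, and P7 replicate 1 alone. Promoter windows are RefSeq's (GRCm38.p6).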

Additional observations from a re-analysis of the deposited data

How the results depend on the processing

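Of the 19 members that passed, 11 also passed under each of the 15 alternatives that fitted them: Adamts9, Adamts10, Adamts12, Adamts14, Adamts17, Adamtsl4, Mmp2, Mmp14, Mmp16, Mmp23 and Timp4. Adamts12 and Adamts14 were among the genes not fitted without dim rows. Leaving out single arrays gave 11 to 23 called members (19 with all), 7 to 18 of them lower (14 with all), with medians from -0.33 to -0.22. Without P7 replicate 3 the members called were 11, with 7 lower. Over all genes these fits called 1647 to 4781 (3870 with all). A further quantile normalization and centring on array medians moved the members' median to -0.18 and -0.17, and that of all genes to 0.03 and 0.04. Centring left 9 members lower, and 1704 of all 17858 genes. Without dim rows 8 of 32 fitted members were lower, and 2322 of all 13393 fitted genes. Array weights, which set P7 replicate 3 at 6.69 against 0.263 for P7 replicate 2, called 32 members (26 lower), 31 of 48 partner genes (8 higher, 23 lower, against 5 and 14 in the main setting) and 8858 genes in all. Beyond these settings the cause of a change was not tested.

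The labels do not say whether replicate numbers pair the arrays, and 3 arrays per group cannot settle it. Deviations from the group means correlated at 0.274, 0.141 and -0.0555 for numbers 1, 2 and 3, and not every array correlated best with its own number. With the replicate number as a block, 16 members passed (5 higher, 11 lower), and 3273 of all 17858 genes. The fit calls Adamts7, Adamts19, Adamts20, Mmp25 and Timp1 no longer (adjusted p from 0.0516 to 0.0809).

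Some differences that had not passed turned sign. Mmp9 read 0.028 after quantile normalization, 0.016 after centring and 0.074 with P7 replicate 1 alone. Mmp24 read -0.016 with array weights, from -0.26 (without P7 replicate 2) to 0.48 when single arrays were left out, and -0.53 with P7 replicate 1 alone. Adamts1 read -0.061 with array weights, from -0.22 to 0.25 when single arrays were left out, with -0.055 without 6wk replicate 1, and -0.41 with P7 replicate 1 alone. With single arrays left out, Mmp17 ran from -0.21 to 0.32 and Lrp1 from -0.047 to 0.45, both lowest without P7 replicate 1. With P7 replicate 1 as the only P7 array, the limma spread comes from the 6wk arrays alone and the lone array is assumed to vary like them, although the P7 arrays of Mmp24 and Mmp17 span 1.49 and 1.05. Under that assumption Mmp24 (-0.53, adjusted p = 0.0462) and Mmp17 (0.58, adjusted p = 0.0309) were past the threshold, in opposite directions. Adamts6, Adamts18, Adamtsl3 and Mmp28 were past it as lower at 6wk. Acan read 0.037 after quantile normalization, 0.026 after centring, from -0.26 to 0.048 when single arrays were left out (above 0 without P7 replicate 2 or 3 or 6wk replicate 1), and 0.31 with P7 replicate 1 alone. Reln ran from -0.16 to 0.59 and Reck from -0.062 to 0.16, both lowest without P7 replicate 2. With P7 replicate 1 alone Reln read -0.36, Reck -0.073, Furin -0.030 and Bcan 0.22. Reck read -0.063 with array weights and Furin -0.090 with all rows of the gene averaged.

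The number of arrays and dim rows limit what can be seen. At both ages 22 members lay under the 95th percentile of olfactory receptor genes, where a change in RNA may not move the value.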
